A study of Homo sapiens with 18 samples.

Results

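CDKN1C and 7 of its neighbours in the imprinted stretch of chromosome band 11p15, namely KCNQ1, PHLDA2, SLC22A18, NAP1L4, CD81, IGF2 and H19, were followed across 18 one-colour arrays. CDKN1C was selected on its array signal, which switched on in Huh1 cells treated with disulfiram (DSF), and the other 7 genes were chosen by their position near it. Every probe that the arrays assign to these 8 genes by RefSeq identifier was taken, which gave 10 of 42405 probes. Of these 10 probes, 9 passed the filter on dim probes and entered the test, together with 29894 probes in all. The question was whether the switch of CDKN1C extended to its neighbours.

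The cells were EpCAM+ cells sorted by flow cytometry from Huh1 and Huh7, established human hepatocellular carcinoma lines. The study describes EpCAM+ cells treated for 48 hours, and the control cells were kept for the same 48 hours. Each line contributed 3 control arrays, 3 arrays after DSF at 0.1 µM and 3 arrays after the antimetabolite 5-fluorouracil (5-FU) at 1 µM. In the study's methods copper chloride accompanies DSF and the vehicle of the control cells is not given, so copper and DSF cannot be told apart. All cells had passed the EpCAM+ gate, so the groups share that selection, and the study describes no second sort after treatment. EPCAM was well above background on all 18 arrays, and its signal changed with DSF by -0.66 on the log2 scale in Huh1 (adjusted p = 0.00633) and by -0.50 in Huh7 cells (adjusted p = 0.0294). ALB, the main secreted protein of hepatocytes, had group means of 8.07 to 8.62. Of 8 liver tumour markers 7 were called lower with DSF in Huh1, with a median of -0.60, where 20.3% of all tested probes were called lower. In Huh7 2 of the 8 were called higher and 4 lower, against 27.3% and 19.4% of probes, and their part in the results was not tested.

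Several genes of this stretch are imprinted, which means that 1 parental copy is read more than the other, and they lie in clusters that each answer to a control region. IGF2, a fetal growth factor, is read mainly from the paternal copy, and H19, a noncoding RNA, from the maternal copy. CDKN1C, PHLDA2 and SLC22A18 are read mainly from the maternal copy in a second cluster, where the paternally read noncoding RNA KCNQ1OT1 runs antisense to KCNQ1. CDKN1C encodes p57KIP2, an inhibitor of cyclin-dependent kinases. In liver, IGF2 and H19 are abundant before birth and return in part of liver tumours. The arrays measure total transcript and do not separate the parental copies. In bulk samples such as these, fewer cells with a transcript and less transcript per cell cannot be told apart.

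Promoter sequence in RefSeq (GRCh38.p14) was held for 3 of the 8 genes, H19, NAP1L4 and SLC22A18, the last under its current symbol SLC67A1. The 250 bases before the most upstream start are shown for these, because H19 lay higher on every Huh1 DSF array than on the control arrays, NAP1L4 was not called and SLC22A18 fell, and for CARS1, a neighbour that rose. Capitals mark the GC box (GGGCGG) and the CCAAT box (CCAAT) on either strand, and no match of one overlapped the other.
H19, chr11:2001267-2001516, minus strand: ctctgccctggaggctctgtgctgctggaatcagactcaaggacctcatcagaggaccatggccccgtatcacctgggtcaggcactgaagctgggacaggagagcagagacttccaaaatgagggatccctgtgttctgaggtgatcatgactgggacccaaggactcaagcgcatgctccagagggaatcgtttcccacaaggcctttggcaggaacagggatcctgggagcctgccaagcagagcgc
NAP1L4, chr11:2992330-2992579, minus strand: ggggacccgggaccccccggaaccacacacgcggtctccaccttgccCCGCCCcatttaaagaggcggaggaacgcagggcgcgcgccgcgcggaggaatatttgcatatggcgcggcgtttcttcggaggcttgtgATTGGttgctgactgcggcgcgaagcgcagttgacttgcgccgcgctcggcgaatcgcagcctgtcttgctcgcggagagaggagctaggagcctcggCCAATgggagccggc
SLC22A18, chr11:2902028-2902277, plus strand: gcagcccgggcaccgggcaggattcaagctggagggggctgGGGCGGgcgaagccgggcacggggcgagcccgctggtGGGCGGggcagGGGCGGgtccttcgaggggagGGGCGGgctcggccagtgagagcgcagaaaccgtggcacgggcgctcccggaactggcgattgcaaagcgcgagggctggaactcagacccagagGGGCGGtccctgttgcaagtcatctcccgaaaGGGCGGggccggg
CARS1, chr11:3057424-3057673, minus strand: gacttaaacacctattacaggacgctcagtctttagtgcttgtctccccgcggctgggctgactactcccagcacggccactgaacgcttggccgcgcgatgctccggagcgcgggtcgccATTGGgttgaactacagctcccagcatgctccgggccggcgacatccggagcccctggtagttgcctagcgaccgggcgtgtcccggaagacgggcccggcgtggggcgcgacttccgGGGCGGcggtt
The SLC22A18 window held 6 GC boxes and 25 CpG dinucleotides. The NAP1L4 window held 1 GC box, 2 CCAAT boxes and 31 CpG, and the CARS1 window 1 GC box, 1 CCAAT box and 28 CpG. The H19 window held neither motif and 4 CpG. Among 35116 promoter windows of the same length, 42.6% held a GC box and 32% a CCAAT box, and the median was 11 CpG. These matches describe the letters of the windows and no binding was measured.

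Values are log2 signals relative to the 75th percentile of each array, so a value of 0 lies at that percentile. Per array 59.9% to 71.1% of probes were well above background by the scanner software's flag. The arrays lay on 3 slides, which are identified in the files. All Huh1 control arrays lay on slide 1 and all Huh7 control arrays on slide 2. Huh7 DSF replicates 2 and 3 lay on slide 3, which held no control array. On the 5-FU arrays the 75th percentile itself stood higher against 6 spike-in probes than on the control arrays, by 0.83 (log2) in Huh1 and 0.99 in Huh7, against 0.13 and -0.17 on the DSF arrays. With spike-in scaling, the change with 5-FU had a median over all probes of 0.79 in Huh1 and of 0.94 in Huh7, and a change after 5-FU is therefore stated against the average probe. A gene or probe is called when limma, fitted over all 18 arrays, gave a Benjamini-Hochberg adjusted p under 0.05 over all tested probes. Of 8 listed markers of leukocytes, endothelium and fibroblasts, 6 were tested and with DSF in Huh1 1 of these was called higher (VWF) and 2 lower (CD14, PECAM1). Their summed normalized signal was 1.39 to 1.51 on the Huh1 DSF arrays and 1.9 to 2.52 on the Huh1 control arrays, CD14, PECAM1 and PTPRC each had a probe well above background on all 18 arrays, VWF passed that flag on 13, COL1A1 on 11, CD3E on 6 and COL3A1 on 1, and their part in the results was not tested.

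CDKN1C lay near background in untreated Huh1 cells and was among the bright probes after DSF. Its normalized log2 signal was -5.70, -5.86 and -5.94 on the Huh1 control arrays, where none of the 3 was well above background. On the Huh1 DSF arrays it was 4.83, 4.70 and 4.67, and all 3 were well above background. In array signal this is 19.4 to 21.8 against 27900 to 32000. The difference of 10.57 on the log2 scale, 1520-fold as a ratio of group means, chose this gene and is given as a description without a test. Normexp background correction gave a difference of 8.49 on the same scale. On the 5 arrays of slide 1, which held 3 control and 2 DSF arrays of Huh1, the difference was 10.60. Of 42327 probes with a value on all arrays, 966 (2.28%) were not well above background on any Huh1 control array and well above it on every Huh1 DSF array, and CDKN1C had rank 4 among these by the size of its change.

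In the other groups the CDKN1C probe stayed low. The arrays read -3.66, -3.52 and -3.68 in Huh7 control cells and -3.46, -3.65 and -3.32 after DSF. These overlapped, and the change of 0.14 (95% confidence interval -0.21 to 0.49) did not pass the test (adjusted p = 0.499). After 5-FU the Huh1 arrays read -5.10, -4.89 and -4.52, all above the 3 control arrays and all well above background, in a comparison where 56.2% of all tested probes did not overlap. The rise in Huh1 was 1.00 on the log2 scale (adjusted p = 0.00018), in a comparison with the same control arrays that entered the choice of the gene, and it was 0.07 and not called with normexp background correction (adjusted p = 0.563). In Huh7 the 5-FU arrays read -3.22, -3.30 and -2.67, and the rise was 0.56 (standard error 0.16, adjusted p = 0.00932).

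Ordered by mean, CDKN1C stood at 4.73 ± 0.08 (SD, n = 3) in Huh1 DSF, -3.06 ± 0.34 in Huh7 5-FU, -3.48 ± 0.17 in Huh7 DSF, -3.62 ± 0.08 in Huh7 control, -4.84 ± 0.30 in Huh1 5-FU and -5.84 ± 0.12 in Huh1 control. Huh7 DSF and Huh7 control did not differ beyond their spread. Huh7 5-FU and Huh7 DSF differed by 0.42 (adjusted p = 0.0404), which was not called with the slide as a block (adjusted p = 0.224) or without Huh7 5-FU replicate 3 or Huh7 DSF replicate 1 or 2 (adjusted p = 0.214, 0.0681 and 0.147). Of the other inhibitors of its family, CDKN1A rose with DSF in Huh1 and fell in Huh7, as opposed changes of 0.51 and -0.77. CDKN1B fell by 0.35 in Huh1 by its brighter probe (adjusted p = 0.001), and its change in Huh7 was -0.04 (adjusted p = 0.692). Its dimmer probe had means of -0.68 in Huh1 control cells and -0.87 after DSF, and of 1.36 and 1.25 in Huh7.

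**Figure D1:**
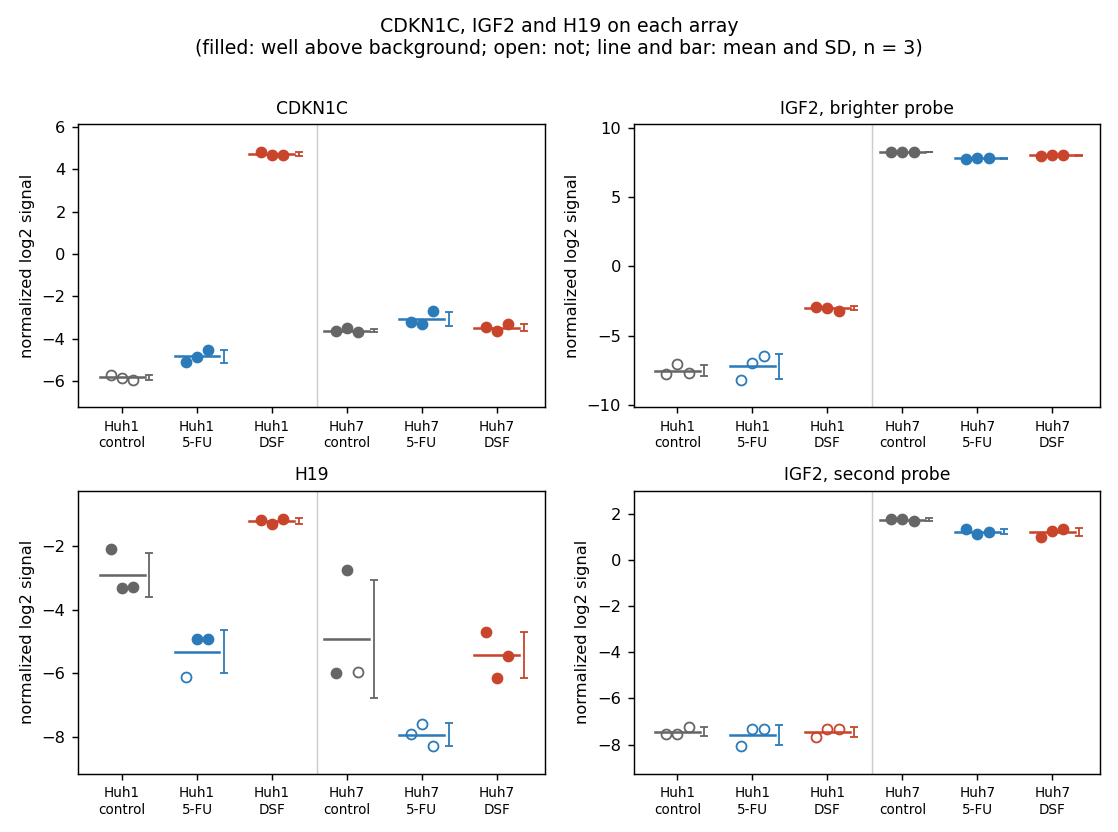
Normalized log2 signal (vertical axis) of CDKN1C, of both IGF2 probes and of H19 on each of 3 arrays in 6 groups (horizontal axis). Filled points were well above background and open points were not, the line is the mean and the bar the SD. The 3 Huh1 DSF arrays of CDKN1C sit between 4.67 and 4.83 and all other arrays at or below -2.67, and the Huh1 DSF arrays of the brighter IGF2 probe sit between its Huh1 control and Huh7 levels.

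With DSF in Huh1, the neighbours moved in both directions. The tested ones moved less than CDKN1C, but CDKN1C was chosen for its large change here, so the gap in size is a description. The brighter IGF2 probe was, like CDKN1C, well above background on no control array and on all 3 DSF arrays, as 2.28% of all probes were. Leaving out CDKN1C, 6 of the 7 other genes were tested, and 4 of these were called, 2 higher (IGF2, PHLDA2) and 2 lower (SLC22A18, CD81), where 44.2% of all tested probes were called, 23.9% higher and 20.3% lower. The median of the 6 changes was 0.30 on the log2 scale and that of all tested probes was 0. NAP1L4 and H19 were not called. The median scaling gave 2 members higher and 3 lower, and spike-in scaling 3 higher and 1 lower.

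PHLDA2, a pleckstrin homology domain protein known as a brake on placental growth, lies near SLC22A18 and CDKN1C. Its arrays read 4.06, 3.90 and 3.83 in Huh1 control cells and 4.66, 4.62 and 4.64 after DSF. Every DSF array lay above every control array, and the rise was 0.71 (95% confidence interval 0.47 to 0.94, adjusted p = 0.000112). In Huh7 it read 0.57, 0.50 and 0.62 in control cells and 1.96, 1.83 and 1.90 after DSF, again with no overlap. The rise in Huh7 was 1.34 (95% confidence interval 1.1 to 1.57, adjusted p = 3.84e-07), larger than that in Huh1 by 0.63 (adjusted p = 0.00522). Under spike-in scaling this difference between the lines was 0.32 and not called (adjusted p = 0.28). PHLDA2 was the 1 member that rose with both drugs in both lines. With 5-FU its arrays read 4.07, 4.45 and 4.41 in Huh1, just above the control arrays, and 2.63, 2.90 and 3.04 in Huh7. The rises were 0.38 for Huh1 (adjusted p = 0.011) and 2.30 for Huh7 (adjusted p = 8.27e-10), the call in Huh1 being lost without Huh1 5-FU replicate 2 (0.31, adjusted p = 0.0551). Set against 5-FU directly, DSF gave more PHLDA2 in Huh1 by 0.33, which spike-in scaling turned to -0.36 and which was not called without Huh1 5-FU replicate 1 or Huh1 DSF replicate 1 (adjusted p = 0.103 and 0.0546), and less in Huh7, by a change of -0.96.

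SLC22A18, a membrane transporter of the organic cation family, fell where CDKN1C rose. Its Huh1 arrays read 5.21, 5.28 and 5.20 in control cells and 4.49, 4.47 and 4.44 after DSF. The groups did not overlap, and the change was -0.76 (95% confidence interval -1.15 to -0.37, adjusted p = 0.00323). In Huh7 the arrays read 3.18, 3.15 and 3.20 in control cells and 2.99, 2.90 and 2.93 after DSF. The change there was -0.23 (95% confidence interval -0.62 to 0.15, adjusted p = 0.304), and the lines did not differ by the test of the difference itself (0.53, adjusted p = 0.114, called without Huh7 5-FU replicate 1 or 2, adjusted p = 0.0222 and 0.0489). With 5-FU the change was -0.71 in Huh1 and -0.67 in Huh7 (adjusted p = 0.00489 and 0.00556), values that spike-in scaling turned to 0.12 and 0.32.

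NAP1L4, a nucleosome assembly protein at the edge of the cluster, was not called with either drug in either line. Its arrays read 0.33, 0.23 and 0.15 in Huh1 control cells and 0.11, 0.04 and 0.23 after DSF, with overlap. The change was -0.11 (95% confidence interval -0.26 to 0.05) in Huh1 and -0.02 (-0.17 to 0.14) in Huh7. Median scaling, which lowers all changes with DSF in Huh1, gave -0.28 in Huh1 (adjusted p = 0.0138).

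CD81, a tetraspanin of the cell surface and a receptor for hepatitis C virus, fell slightly with DSF in both lines by both of its probes. The brighter probe read 4.14, 4.25 and 4.20 on the Huh1 control arrays and 3.83, 3.79 and 3.77 after DSF, with no overlap. The change was -0.40 (adjusted p = 0.000128) by this probe and -0.38 (adjusted p = 1.98e-05) by the second. Spike-in scaling gave -0.26 and -0.24, neither called (adjusted p = 0.17 and 0.167). In Huh7 the changes were -0.25 (adjusted p = 0.00402) and -0.14 (adjusted p = 0.0261), and with the slide as a block they were -0.12 and -0.13, neither called (adjusted p = 0.252 and 0.162). The call of the second probe there was lost without Huh7 control replicate 2 or 3 or Huh7 DSF replicate 2 (adjusted p up to 0.104). With 5-FU both probes were called lower in Huh7 (-0.22 and -0.24) and neither in Huh1 (-0.03 and -0.04), and spike-in scaling turned all 4 values to between 0.75 and 0.79.

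**Figure D2:**
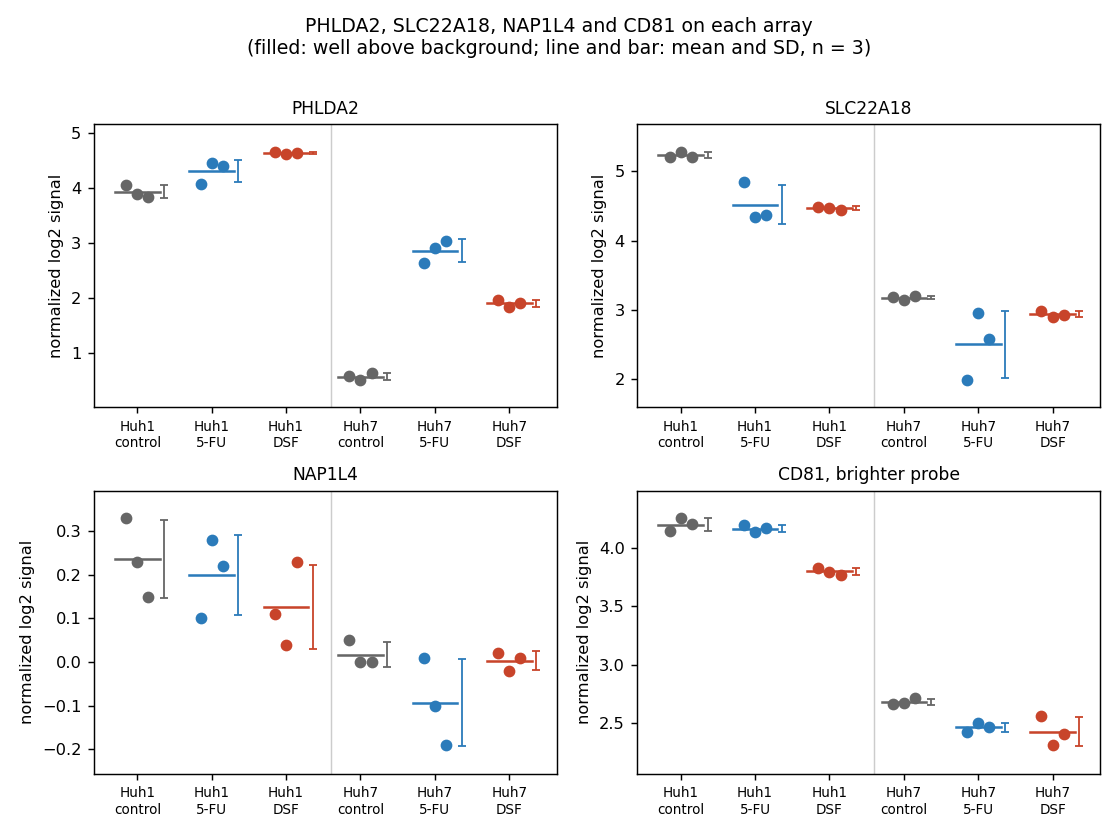
Normalized log2 signal (vertical axis) of PHLDA2, SLC22A18, NAP1L4 and the brighter CD81 probe on each of 3 arrays in 6 groups (horizontal axis), with a scale of its own in each panel, the mean as a line and the SD as a bar. PHLDA2 is higher on every treated array than on the control arrays of its line, and NAP1L4 spans 0.04 to 0.33 over the 9 Huh1 arrays.

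KCNQ1, a potassium channel subunit whose gene spans the control region of the second cluster, stayed under the background flag on each of the 18 arrays and was not tested. Its signals ran from 3.76 to 7.11, near the lowest on the arrays, so a fall or a small rise of KCNQ1 was not detectable. On the Huh1 DSF arrays they were 4.6 to 6.79, against 5.55 to 5.95 on the Huh1 control arrays. A switch-on of KCNQ1 was therefore not seen by this probe. Its antisense partner KCNQ1OT1 is singled out here for its role, outside the rule by which genes are named. KCNQ1OT1 had a mean of -3.30 ± 0.40 (SD, n = 3) in Huh1 control cells and -3.00 ± 0.18 after DSF, a change of 0.31 that was not called (adjusted p = 0.25). In Huh7 it stood at -0.87 ± 0.36 in control cells and -2.10 ± 0.29 after DSF, a fall of 1.22 on the log2 scale (adjusted p = 0.000242), and the lines differed by -1.53 (adjusted p = 0.000859). It also fell with 5-FU, by 1.19 in Huh1 and by 2.19 in Huh7 (adjusted p = 0.000266 and 4.94e-07).

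IGF2 was measured by 2 probes of unlike brightness, and only the brighter rose with DSF in Huh1. The brighter probe, printed as 1 spot per array, was not well above background on the Huh1 control arrays (-7.76, -7.06 and -7.73). On the Huh1 DSF arrays it read -2.93, -2.97 and -3.19 and was well above background on all 3. The rise was 4.49 as fitted (adjusted p = 6.46e-08), at least 11.2-fold on this scale when the control arrays are set at the lowest signal well above background, and 1.49 with normexp background correction (adjusted p = 2.68e-10). On slide 1 alone the difference was 4.57. The second probe, printed as 2 spots, read -7.56, -7.56 and -7.22 on the control arrays and -7.69, -7.31 and -7.34 after DSF. None of these 6 arrays was well above background for the second probe, and its change was 0.00 (95% confidence interval -0.38 to 0.39, adjusted p = 0.995). In Huh7 control cells the second probe gave signals of 3630 to 3850, where the brighter gave 335000 to 344000. A rise such as the brighter probe showed in Huh1 could thus stay under the background of the second, whose flat value cannot decide.

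The IGF2 signal in Huh1 after DSF was small beside that of Huh7. In array signal the brighter probe gave 120 to 152 on the Huh1 DSF arrays and 335000 to 344000 on the Huh7 control arrays. The mean in Huh1 with DSF was 0.0404% of that in untreated Huh7 cells. The brighter IGF2 probe was the 1 probe with a mean signal above 100000 in Huh7 control cells that was not well above background on any Huh1 control array. In Huh7 it read 8.26, 8.24 and 8.22 in control cells, 7.94, 8.02 and 8.05 after DSF, and 7.77, 7.79 and 7.82 after 5-FU. All treated arrays lay below all control arrays, where the groups did not overlap for 60.5% of all tested probes with DSF and 66.3% with 5-FU. The changes of -0.24 with DSF and -0.44 with 5-FU were not called in the fit of all arrays (adjusted p = 0.54 and 0.232) and were called in a fit of the 9 Huh7 arrays alone (adjusted p = 0.0119 and 0.000354). The spread that the fit of all arrays uses includes the Huh1 arrays at background. The second probe, at 1.77, 1.79 and 1.67 in Huh7 control cells, changed by -0.53 with DSF (adjusted p = 0.0251) and -0.52 with 5-FU (adjusted p = 0.0232), calls lost under quantile normalization (adjusted p = 0.125 and 0.131). The DSF call was also lost without Huh7 control replicate 1 or 2 or Huh7 DSF replicate 1 (adjusted p up to 0.0859), and the 5-FU call without Huh7 control replicate 1 or 2 or Huh7 5-FU replicate 2 or 3 (adjusted p up to 0.0711). The response of the brighter probe to DSF in Huh7 minus that in Huh1 was -4.73 (adjusted p = 2.09e-06).

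H19 was the most variable member. Its Huh1 arrays read -2.10, -3.32 and -3.27 in control cells, -1.19, -1.31 and -1.13 after DSF and -6.10, -4.93 and -4.91 after 5-FU. The 3 treatments did not overlap: DSF lay above control and 5-FU below it. The change with DSF was 1.69 (95% confidence interval 0.19 to 3.19) and missed the threshold (adjusted p = 0.0638), with a share of 59.1% of all tested probes also free of overlap in this comparison. The change with 5-FU was -2.42 (adjusted p = 0.0106), and DSF stood above 5-FU by 4.11 (adjusted p = 0.000233).

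The spread behind these H19 tests rested in part on 1 spot. In Huh7 control cells H19 read -5.99, -2.76 and -5.96, and on replicate 2 one of the pair of spots gave a signal of 1793 and the other 15. Without that spot, a setting chosen after seeing the data, the DSF change in Huh1 was again 1.69 and was called (adjusted p = 0.00301), as it was without Huh7 control replicate 2 or Huh1 control replicate 1 (adjusted p = 0.00441 and 0.0432) and with normexp background correction (1.30, adjusted p = 0.0178). In Huh7 the DSF arrays read -4.69, -6.13 and -5.44, and the change was -0.52 (adjusted p = 0.569), or 0.63 without the spot (adjusted p = 0.204). After 5-FU none of the Huh7 arrays was well above background for H19 (-7.90, -7.58 and -8.29). The change was -3.02 as fitted (adjusted p = 0.00189), -1.87 without the spot (adjusted p = 0.000981) and -1.95 without the whole array. The response to DSF did not differ between the lines by the test (-2.21, adjusted p = 0.0896, and -1.05 without the spot, adjusted p = 0.148), a difference that was called with normexp background correction (-2.05, adjusted p = 0.0107) and without Huh7 control replicate 1 or 3 (adjusted p = 0.0444 and 0.0463).

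**Figure D3:**
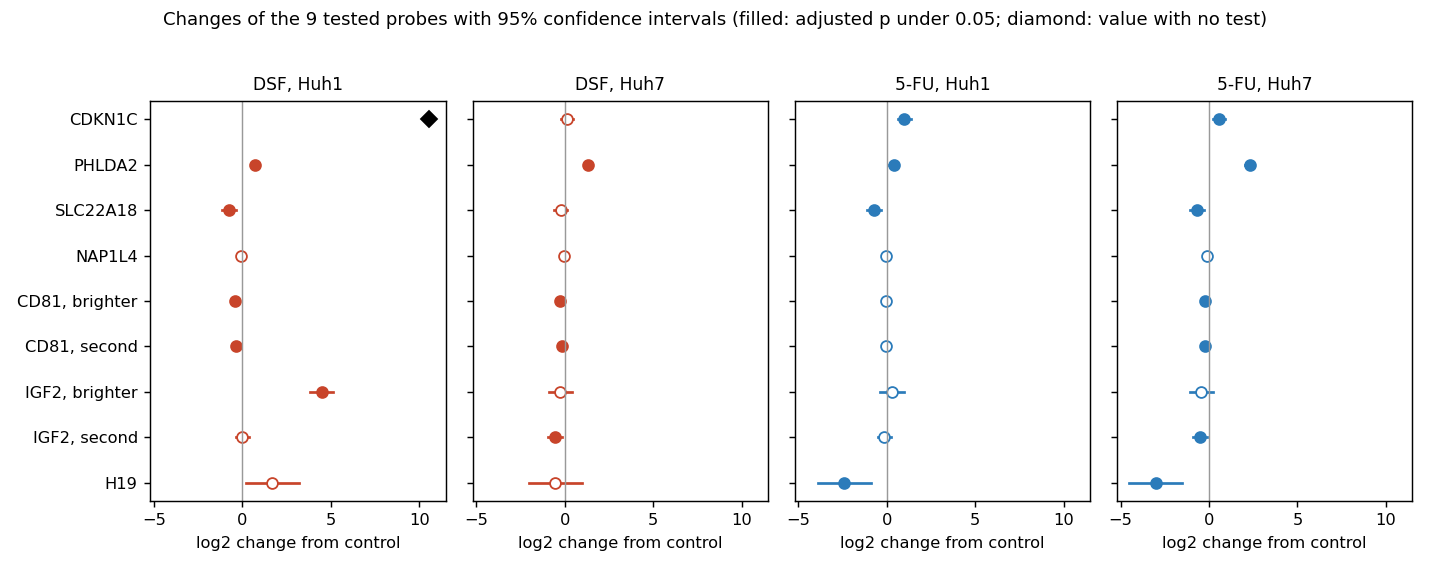
Change from control on the log2 scale (horizontal axis) of the 9 tested probes (vertical axis) for each drug in each line, with 95% confidence intervals from limma. Filled points were called, open points were not, and the diamond is the CDKN1C value of 10.57 given without a test. With DSF in Huh1 the points next largest to CDKN1C are the brighter IGF2 probe at 4.49 and H19 at 1.69.

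In the other comparisons that involve a drug between 1 and 5 members were called. With DSF in Huh7, 2 of 7 tested genes were called (PHLDA2 higher, CD81 lower), where 46.7% of all tested probes were, 27.3% higher and 19.4% lower. With 5-FU, 4 of 7 were called in Huh1 (CDKN1C and PHLDA2 higher, H19 and SLC22A18 lower) against 48.2% of probes, 22.2% higher and 26% lower. The CDKN1C call there used control arrays that entered its choice and was lost with normexp background correction, so it is a description. In Huh7 5 of 7 were called with 5-FU, the same 4 in the same directions and CD81 lower as well, against 57.1% of probes, 27.3% higher and 29.7% lower. DSF set against 5-FU gave 4 of 6 called in Huh1, of which H19, IGF2 and PHLDA2 were higher with DSF and CD81 lower, against 49.2% of probes, 28.7% higher and 20.6% lower. In Huh7 it gave 3 of 7, of which H19 was higher and CDKN1C and PHLDA2 lower, against 60.5%, 35.6% higher and 25% lower. The DSF response differed between the lines for 2 of 6 (PHLDA2 higher, IGF2 lower in Huh7 minus Huh1) against 40.3% of probes, 21.1% higher and 19.2% lower. The 5-FU response differed for 1 of 7 (PHLDA2, by 1.92) against 36.6%, 18.8% higher and 17.8% lower. All comparisons of a drug with control within a line use the same control arrays.

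Before treatment the lines differed in all 7 tested members, CDKN1C counted as a description, where 70.7% of all tested probes were called, 34.5% higher and 36.2% lower. The control arrays of Huh1 and Huh7 lay on different slides, so line and slide cannot be told apart in this comparison. IGF2 was higher in Huh7 than in Huh1 control cells, at least 27700-fold by the brighter probe and at least 306-fold by the second on this scale, and by 12.19 and 5.80 (log2) with normexp background correction. CDKN1C was 2.22 higher in Huh7 on the log2 scale and 0.92 higher with normexp background correction, but its low signal on these Huh1 control arrays entered its choice, so this difference is a description. The other 5 were lower in Huh7: PHLDA2 by a change of -3.37, SLC22A18 of -2.05, H19 of -2.0, CD81 of -1.51 and NAP1L4 of -0.22. The H19 groups overlapped, and its difference was -3.15 without the discordant spot and -3.08 without that array. It was -0.58 and not called with normexp background correction (adjusted p = 0.231), nor was it without Huh1 control replicate 1 or Huh7 control replicate 1 or 3 (adjusted p = 0.0805, 0.0944 and 0.0934). The NAP1L4 difference was not called without Huh1 control replicate 1 (-0.17, adjusted p = 0.0628).

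Other genes of the stretch were then described from a list of 24, of which 22 were on the array and 17 were tested. With DSF in Huh1, 9 were called higher and 1 lower, against 23.9% and 20.3% of all tested probes, and their median was 0.31 against 0 for all tested probes. IFITM10, an interferon-induced transmembrane family member, was not well above background on any Huh1 control array and stood at -2.69 ± 0.12 (SD, n = 3) after DSF. Its rise was at least 9.97-fold (3.52 as fitted, adjusted p = 1.6e-07). CARS1, a cysteinyl-tRNA synthetase whose promoter is shown above, went from -0.61 ± 0.29 to 0.64 ± 0.03, a rise of 1.25 (adjusted p = 2.86e-06). ZNF195, a zinc finger protein, rose by 0.83 (adjusted p = 1.35e-05). MRPL23, a mitochondrial ribosomal protein, was the 1 gene called lower (-0.54, adjusted p = 1.74e-06).

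With DSF in Huh7, 6 of the 17 were called higher and 2 lower, against 27.3% and 19.4% of probes, and their median was 0.02 against 0.08. IFITM10 and CARS1 changed there by -0.40 and 0.02, neither called (adjusted p = 0.231 and 0.898), and both differed between the lines by the test of the difference (-3.92 and -1.23, adjusted p = 2.85e-06 and 0.000119). After 5-FU, Huh1 had 6 called higher and 3 lower, against 22.2% and 26% of probes, and Huh7 had 5 called higher and 8 lower, against 27.3% and 29.7%. SYT8, counted as lower in Huh7 with either drug, passed the dim-probe filter only through the Huh7 control arrays, so its falls are a description. The change of 3.52 for IFITM10 was the largest of the 17 with DSF in Huh1. That of CDKN1C, which was chosen for its size, was 10.57.

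**Figure D4:**
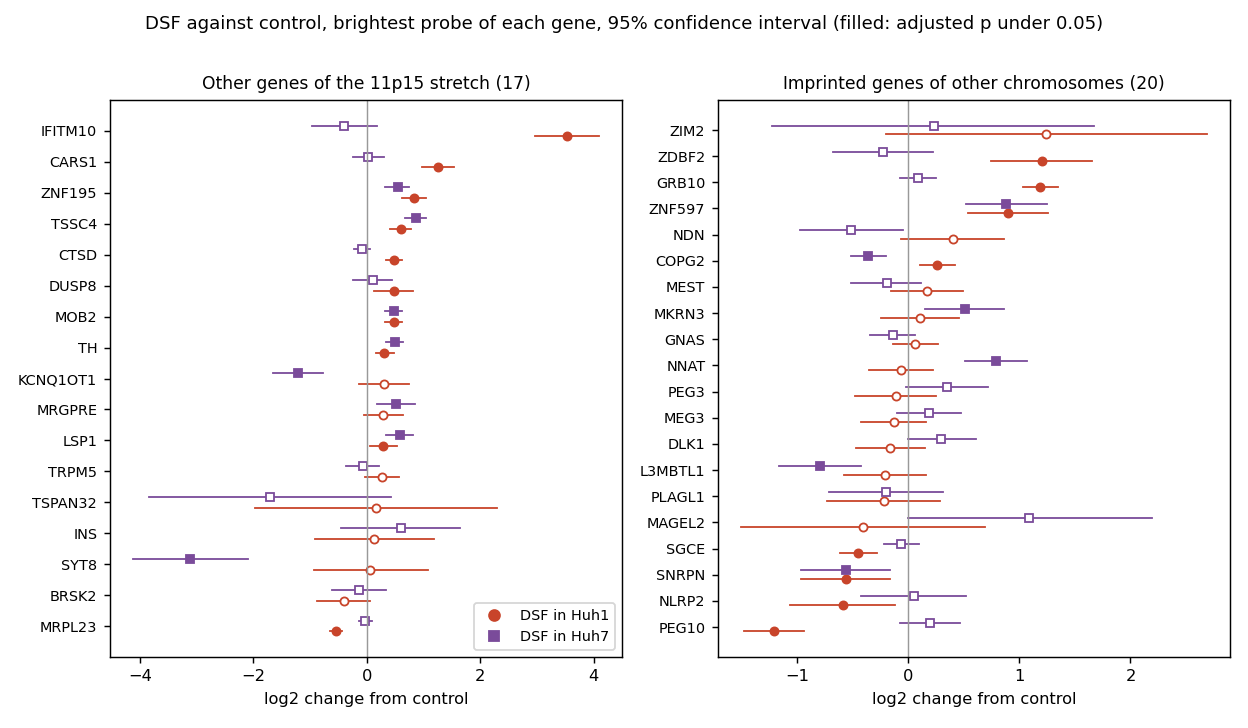
Change with DSF on the log2 scale (horizontal axis) of the 17 tested genes of the 11p15 stretch and of 20 imprinted genes of other chromosomes (vertical axes), in Huh1 (circles) and Huh7 (squares), with 95% confidence intervals and filled points for called genes. IFITM10 stands at 3.52 in Huh1 and -0.40 in Huh7, and PEG10 at -1.21 and 0.20.

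Imprinted genes on other chromosomes moved both ways. Of 22 listed, 20 were tested. With DSF in the Huh1 line 4 were called higher and 4 lower, against 23.9% and 20.3% of all tested probes, with a median of -0.09. These 8 of 20 lie near the 44.2% of all probes called. ZDBF2, a paternally expressed zinc finger gene, rose by 1.20 (adjusted p = 0.00033) and ZNF597, a zinc finger gene, by 0.90 (adjusted p = 0.000584). GRB10, an adaptor that dampens insulin and IGF receptor signalling, rose by 1.19 by its brighter probe (adjusted p = 2.9e-08), while its other probe changed by -0.14 (adjusted p = 0.207). MEG3, a maternally expressed noncoding RNA, is named outside the rule, after its values were seen, because its probes disagreed. The dimmer probe went from -4.01 ± 0.27 (SD, n = 3) on the Huh1 control arrays to 0.08 ± 0.04 with DSF, a rise of 4.09 (adjusted p = 1.99e-08). In Huh7 this probe changed by 0.27 with DSF (adjusted p = 0.379), and the responses differed by -3.82 (adjusted p = 2.09e-06). The brighter MEG3 probe, which entered the counts, changed by -0.13 in Huh1 (adjusted p = 0.464). PEG10, a retrotransposon-derived gene often raised in liver cancer, fell by 1.21 (adjusted p = 3.35e-06). NLRP2 fell by 0.59 and SNRPN by 0.56 (adjusted p = 0.0422 and 0.0253). In Huh7 3 of the 20 were called higher and 3 lower, against 27.3% and 19.4% of all tested probes. One of the lower 3, SNRPN, was not well above background on any array of either group.

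In the IGF pathway IGF2 acts through IGF1R and INSR and is bound by IGF2R and the IGFBP proteins. Of 15 genes, 4 were called higher and 8 lower in the Huh1 line, and 4 higher and 6 lower in the Huh7 line, where 44.2% and 46.7% of all probes were called in either direction. IGF2R was called in neither line. IGFBP1, a secreted binding protein made by hepatocytes, rose by 3.52 in Huh1 (adjusted p = 6.78e-06), against 1.61 in Huh7 (adjusted p = 0.00424). IGF1 was not well above background on any control array of either line and rose at least 4.87-fold in Huh1 and 3.75-fold in Huh7. It was higher with 5-FU in both lines as well. IGF1 passed the dim-probe filter only through the treated arrays, where it is high, so its rises are a description. Its second probe was well above background on 1 Huh1 DSF array and on none of the Huh7 DSF arrays. IGFBP5 fell at least 6.99-fold in Huh1, to signals that were not well above background, and was also lower there with 5-FU. It passed the dim-probe filter only through the Huh1 control arrays, where it is high, so its falls are a description. IGFBP2 fell by 1.41 (adjusted p = 1.61e-06). Among 14 tested partners of p57 and genes of the G1/S transition, 3 were called higher (CCND3, CCNE1, CDKN1A) and 5 lower (CCNA2, CDK6, CDKN1B, LIMK1, PCNA) after DSF treatment of Huh1, against 5 higher and 2 lower after that of Huh7. These 8 and 7 of 14 lie near the shares of all probes called.

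Likeness to CDKN1C over the 18 arrays rests largely on the 3 Huh1 DSF arrays that chose it, and for the members also on the difference between the lines, so it is given as a description with no p-value. Pearson's r with CDKN1C was 0.513 for H19 and 0.324 for PHLDA2, and between -0.0747 and 0.0381 for the other 4 tested members. IGF2 was among these 4, although within Huh1 its brighter probe was off on the control arrays and on after DSF. It stood 15.76 (log2) higher in Huh7 than in Huh1 control cells. The 8 genes with the highest r among 15852 named and tested genes were NBEAP1 (0.962), SLC9A5 (0.96), RPL3L (0.955), MAL (0.954), ZSWIM8 (0.952), LINC01554 (0.946), MKRN10P (0.944) and SP140 (0.943). MAL had means of -7.68 in Huh1 control cells and -0.54 after DSF. MAL and NBEAP1 were not well above background on any Huh1 control array and were so on all 3 Huh1 DSF arrays, as CDKN1C was. The other 6 were well above background on all arrays, with smaller differences in Huh1 of 0.74 to 4.18 on the log2 scale.

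**Figure D5:**
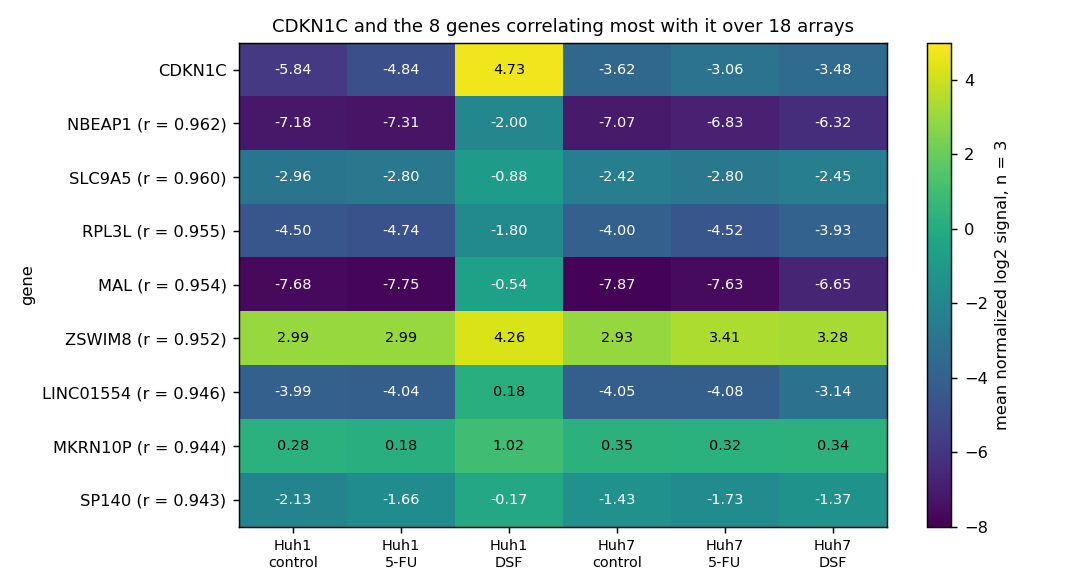
Mean normalized log2 signal of 3 arrays (colour and printed value) for CDKN1C and the 8 genes with the highest Pearson's r to it over 18 arrays (rows), in the 6 groups (columns). Every row has its highest mean in Huh1 DSF, from -2.0 for NBEAP1 to 4.73 for CDKN1C.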

How the data were processed

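EpCAM+ Huh1 and Huh7 cells were profiled in 6 groups of 3 arrays on an Agilent one-colour 8x60K design. The deposited intensity values (processed signals) were made by the authors with Agilent Feature Extraction 10.7.1.1 per the file headers, with background subtracted and low values replaced by a surrogate. The methods scale each array to its 75th percentile in GeneSpring. The authors' deposited normalized table matched that scaling and served as an alternative. It holds a linear ratio to the 75th percentile, with column medians of 0.0685 to 0.0833.

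From the files, signals of spots without an outlier flag were averaged on the log2 scale per probe and each array's 75th percentile was subtracted. Of 42405 probes, 78 without such a spot on some array were left out. A probe entered the test if 0.5 or more of its spots passed the well-above-background flag on every array of 1 or more groups. limma 3.58.1 in R 4.3.3 fitted 6 group means over 18 arrays, with Benjamini-Hochberg adjustment over 29894 probes. The script was tested on simulated data. A gene was represented by its brightest tested probe. Where no array of a group passed that flag, folds are bounds ("at least"), taken against the higher of its own signal and the lowest signal well above background. These bounds hold on the scaled processed signals, and normexp background correction gave smaller changes for IGF2. CDKN1C was left out of member counts in contrasts with Huh1 DSF, and its values there carry no test.

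Members and gene lists were chosen with earlier results of these data known. Named were all members, CDKN1A and CDKN1B, the 3 largest called rises and falls with DSF in Huh1 among the 11p15 and the other imprinted genes, 2 each of the IGF pathway, and the 8 genes most correlated with CDKN1C. The files hold no mean signal, so normexp background correction (offset 50) used the median signals. Other alternatives were quantile, median and spike-in scaling, the dim-probe filter, the slide or the replicate number as a block, 1 line alone, flagged outlier spots kept, another choice of probe per gene, and each replicate left out. Replicates are from independent experiments per the methods. With 3 arrays a group the number of arrays limits the precision, and a rank test of 3 against 3 cannot give p under 0.1.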

Additional observations from a re-analysis of the deposited data

Results flagged for a closer look

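The response to a drug differed between Huh7 and Huh1 for 5 probe and drug pairs by limma's test of the difference itself. The difference, Huh7 minus Huh1, was -4.73 for the brighter IGF2 probe with DSF (adjusted p = 2.09e-06), and that probe was called higher in Huh1 and not called in Huh7. PHLDA2 differed by 0.63 with DSF (adjusted p = 0.00522) and by 1.92 with 5-FU (adjusted p = 8.18e-07), with the larger rise in Huh7 both times. The second CD81 probe differed by 0.24 with DSF (adjusted p = 0.0127) and by -0.20 with 5-FU (adjusted p = 0.0345), and the latter call was lost without Huh1 control replicate 1 or 3, Huh1 5-FU replicate 2 or 3, any 1 Huh7 control array or Huh7 5-FU replicate 3 (adjusted p = 0.0505 to 0.0788). The brighter CD81 probe differed by 0.14 and -0.18, neither called (adjusted p = 0.215 and 0.12).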

How the results depend on the processing

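Of the members' values outside the settings that leave out a replicate, 868 were kept, 32 lost a call and 28 gained one. Another 18 turned in direction with a call before or after, while a turn between uncalled values counted as kept. CDKN1C values without a test counted as kept when they moved by less than the spread within groups, and 8 moved further. With 5-FU held against the spike-ins, whose scaling raises the median of all probes by 0.79 and 0.94, the values that turned were SLC22A18 at 0.12 and 0.32, NAP1L4 at 0.79 and 0.87, the second IGF2 probe at 0.70 and 0.47, and the CD81 probes at 0.79 and 0.77 and at 0.78 and 0.75, giving the Huh1 value first. Comparing DSF with 5-FU, the same scaling gave PHLDA2 -0.36 and the second IGF2 probe -0.56 in Huh1, and in Huh7 SLC22A18 -0.73, NAP1L4 -1.06, the brighter IGF2 probe -0.96 and the second CD81 probe -1.06. It gave -0.07 for the DSF line difference of the second CD81 probe. Normexp background correction gave -0.50 for the brighter IGF2 probe with 5-FU in Huh1, at background in both groups. Spike-in scaling gave 6 of 7 members called for DSF against 5-FU in Huh7, against 2.76% of all probes called higher and 80.9% lower. It gave 1 of 6 for the DSF line difference, against 4.79% and 23.2% of probes. Of 17 genes of the 11p15 stretch it called 14 with 5-FU in Huh1 and 4 with DSF in Huh7. Of 20 imprinted genes elsewhere it called 5 with DSF in Huh1 and 17 with 5-FU in Huh7 (13 with normexp). Of 14 p57 partners and G1/S genes it called 5 with DSF in Huh1. Among all tested probes it changed the higher and lower calls with 5-FU from 22.2% and 26% to 74.7% and 1.23% in Huh1 and from 27.3% and 29.7% to 76.8% and 3.46% in Huh7. For DSF it gave 23.7% and 8.09% in Huh1 and 10.8% and 20.5% in Huh7, and median scaling gave 15.9% and 32.2% in Huh1. Testing only probes above background on all arrays drops IGF2, CDKN1C and H19 and keeps PHLDA2, SLC22A18, NAP1L4 and CD81. Of these kept members 2 were called with 5-FU in Huh1, 3 with 5-FU in Huh7 and 2 for DSF against 5-FU in Huh1. For the DSF line difference 1 was called, and between the control groups all 4 were. With DSF in Huh1 this setting called 5 imprinted genes elsewhere, from fewer tested. The slide as a block left 1 of 7 members called with DSF in Huh7. Quantile normalization gave 2 of 7 members called for the 5-FU line difference, against 18.5% of all probes called higher and 18.6% lower. Counting a gene by any of its probes also gave 2 of 7. Leaving out 1 replicate gave 1 to 2 of 7 members for the 5-FU line difference (2 without Huh1 5-FU replicate 1 or Huh7 5-FU replicate 3). It gave 4 to 12 of 20 imprinted genes with DSF in Huh7 (12 without Huh7 DSF replicate 1, against 6). For normexp, the filter on all arrays, the slide block and the left-out replicates, the share of all probes called is not given. Their counts are therefore a description. Except where a setting's construction is named, the cause was not tested.

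Arrays with the same replicate number did not deviate together (r of -0.0932 to 0.00925), so the numbers were not taken as pairs. With the replicate block the second CD81 probe's 5-FU line difference stayed at -0.20 and lost its call (adjusted p = 0.0577).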
